A study of Mus musculus with 47 samples.

Results

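A set of 10 genes that make, supply or load MHC class I molecules was followed in the medial prefrontal cortex (PFC) of mice after chronic intermittent ethanol vapor (CIE) or air (Ctrl). They were chosen by name, as H2-K1, H2-D1, H2-M3, B2m, Tap1, Tap2, Tapbp, Psmb8, Psmb9 and Erap1, and every probeset whose annotation gives that symbol alone was used. This rule gave 28 probesets, of 45037 on the array. H2-D1 had 9, H2-K1 and Tap1 had 4 each, B2m, Tapbp, Psmb8 and Erap1 had 2 each, and H2-M3, Tap2 and Psmb9 had 1 each. Another 3 probesets name a member together with a different gene and were not used.

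The mice were adult males of the inbred strain C57BL/6 (C57BL/6J in the protocol), and RNA came from individual animals. The CIE mice breathed 10 to 13 mg/l ethanol vapor for 16 h per day over 4 days and then had 7 days of abstinence, in 4 cycles, each begun with ethanol at 1.6 g/kg and the alcohol dehydrogenase inhibitor pyrazole at 1 mmol/kg. The Ctrl mice received saline with the same pyrazole and breathed air, so every mouse here carried the inhibitor. PFC was taken at 4 times, named 0h, 8h, 72h and 7d by the interval since the final chamber session. Each group held 6 mice, apart from CIE at 8h with 5, for 47 arrays in all.

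MHC class I molecules display short peptides from a cell's own proteins to CD8 T cells and natural killer cells. The heavy chain (H2-K1 and H2-D1 in this strain) folds with beta-2-microglobulin (B2m). Peptides are cut by the proteasome, whose catalytic subunits Psmb8 and Psmb9 replace constitutive ones when a cell responds to interferon, are pumped into the endoplasmic reticulum by the Tap1 and Tap2 transporter, are trimmed by the aminopeptidase Erap1, and are loaded with the help of tapasin (Tapbp). In brain, microglia and endothelial cells express the pathway more than resting neurons do, and interferon raises it in most cell types, in part through the class I transactivator Nlrc5.

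Class I promoters are known for a compact set of regulatory motifs, and the windows of 250 bases before the start of each gene are shown because the 10 genes did not behave alike and these letters show what their promoters share. They are RefSeq sequences of assembly GRCm38.p6, read 5′ to 3′ on the strand of the gene; 9 of the 10 genes had a window, and Tap2 had none. Capitals mark 4 motifs searched on both strands: TGACG (the core of the X2 or CRE element), CCAAT (the Y box, also as ATTGG), AANNGAAA (the core of the interferon response element bound by IRF factors), and the kappaB consensus. Where motifs touch or overlap, their capitals run together. For H2-K1, which has more than 1 start, the first listed is shown.
H2-K1, chr17:34000348-34000597, minus strand: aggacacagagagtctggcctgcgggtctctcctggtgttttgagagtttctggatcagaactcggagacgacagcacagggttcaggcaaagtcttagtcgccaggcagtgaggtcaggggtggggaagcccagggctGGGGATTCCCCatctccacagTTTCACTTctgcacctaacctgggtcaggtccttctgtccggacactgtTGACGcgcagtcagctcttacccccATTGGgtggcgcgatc
H2-D1, chr17:35262844-35263093, plus strand: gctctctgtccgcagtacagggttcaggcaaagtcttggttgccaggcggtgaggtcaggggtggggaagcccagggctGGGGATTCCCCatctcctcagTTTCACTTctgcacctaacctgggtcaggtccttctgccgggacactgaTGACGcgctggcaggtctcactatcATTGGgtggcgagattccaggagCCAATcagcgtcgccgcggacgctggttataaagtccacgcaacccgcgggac
H2-M3, chr17:37269984-37270233, plus strand: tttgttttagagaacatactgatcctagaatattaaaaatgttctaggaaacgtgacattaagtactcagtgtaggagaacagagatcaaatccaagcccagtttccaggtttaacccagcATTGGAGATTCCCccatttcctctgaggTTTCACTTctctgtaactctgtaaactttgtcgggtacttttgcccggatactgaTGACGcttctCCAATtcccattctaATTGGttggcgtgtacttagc
B2m, chr2:122147437-122147686, plus strand: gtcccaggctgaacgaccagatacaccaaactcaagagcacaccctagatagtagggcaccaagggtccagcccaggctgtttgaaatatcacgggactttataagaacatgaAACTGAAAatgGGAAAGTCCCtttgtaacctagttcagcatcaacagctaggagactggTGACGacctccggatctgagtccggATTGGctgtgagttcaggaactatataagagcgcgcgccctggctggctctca
Tap1, chr17:34187306-34187555, plus strand: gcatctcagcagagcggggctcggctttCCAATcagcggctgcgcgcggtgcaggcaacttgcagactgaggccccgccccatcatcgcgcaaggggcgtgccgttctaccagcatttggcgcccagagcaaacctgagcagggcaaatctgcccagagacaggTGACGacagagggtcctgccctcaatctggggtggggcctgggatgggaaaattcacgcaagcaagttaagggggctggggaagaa

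H2-K1, H2-D1, H2-M3 and B2m each held all 4 motifs. In these 4 genes TGACG was followed by ATTGG with the first letters 25 bases apart, a spacing found in 0.0925% of 27025 promoter windows of the same length. The windows of H2-K1 and H2-D1 were identical at 87.4% of 190 compared bases, without gaps. Tap1 and Psmb9 lie head to head on chromosome 17 and share 225 bases of window, with TGACG and CCAAT but neither of the other motifs. Tapbp held CCAAT alone, and Psmb8 and Erap1 held none of the 4. Over all windows TGACG occurred in 17.9%, CCAAT in 34.5%, AANNGAAA in 21.6% and the kappaB consensus in 7.01%. Among the members 6, 7, 4 and 4 of 9 held them. A match describes the letters and does not show that a factor binds there. Psmb9, Tap1, Psmb8 and Tap2 are consecutive genes in the RefSeq order, inside the class II part of the locus.

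Levels are log2 RMA values, so a difference of 1 is a 2-fold change, and levels of different probesets are not comparable. Each gene is described by its probeset of highest mean level, probesets marked _x_at (known to cross-hybridize) coming last. H2-K1 has only such probesets and H2-D1 has 7 of 9, and the heavy chain genes are related in sequence. A value given for either may thus include the other or a related chain. In this dissected tissue more cells of a type and more RNA per cell cannot be told apart. Each array was correlated with all others, and its average r was between 0.967 and 0.994. By that measure 7 arrays stood apart: Ctrl 0h mice 2 and 20, CIE 0h mice 5 and 17, CIE 8h mice 15 and 23, and CIE 72h mouse 3. Arrays of 8h came from repeat groups 1 and 2 (3 and 3 Ctrl mice, 3 and 2 CIE mice), and all others from repeat group 1. Cortical neuron markers averaged 11.67 to 11.81 in Ctrl and 11.65 to 11.84 in CIE mice at 0h. Striatum markers, from tissue that borders the dissection, averaged 8.49 to 8.99 in Ctrl but 8.78 to 10.62 in CIE mice at 0h.

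The heavy chains were higher on average in CIE than in Ctrl mice at 0h and 8h, by about 2-fold, with mice of the groups overlapping. For H2-K1 (1451931_x_at) the Ctrl 0h mice ran from 9.83 to 11.70 with a median of 10.35, and the CIE 0h mice from 10.53 to 12.33 with a median of 11.67. At 8h the Ctrl mice ran from 10.07 to 11.24 (median 10.35), and the CIE mice 15, 23, 40, 51 and 69 stood at 11.59, 11.85, 10.86, 10.90 and 12.24. At each of these times 3 CIE mice were above every Ctrl mouse, and the others lay within the Ctrl range set by its highest animal, mouse 20 at 0h and mouse 66 at 8h. The difference was 0.96 ± 0.28 (SE, 1.94-fold) at 0h with a limma adjusted p of 0.0141, and 1.06 ± 0.29 (2.08-fold) at 8h with an adjusted p of 0.0156. Neither passed the FDR threshold of 0.01 that the study used.

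H2-D1 (1426324_at), whose product is the other classical heavy chain here, gave nearly the same picture. Its Ctrl 0h mice lay between 6.05 and 8.44 (median 6.87) and its CIE 0h mice between 6.93 and 9.15 (median 8.34). At 8h Ctrl mice lay between 6.20 and 7.66 (median 6.85), and CIE mice 15, 23, 40, 51 and 69 were at 8.33, 8.50, 7.12, 7.40 and 8.72. CIE mice 17, 43 and 72 at 0h and mice 40 and 51 at 8h fell inside the Ctrl range for both heavy chains. The differences of 1.05 ± 0.32 at 0h (SE, adjusted p = 0.0216) and 1.15 ± 0.34 at 8h (adjusted p = 0.0241) missed the threshold in the limma fit.

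B2m, the light chain shared by all class I molecules, differed by less. At 0h the Ctrl mice spanned 12.18 to 13.40 (median 12.34) and the CIE mice 12.44 to 13.53 (median 13.08), a difference of 0.43 ± 0.19 (SE, limma adjusted p = 0.113). At 8h the Ctrl mice spanned 12.12 to 12.96 (median 12.34), and CIE mice 15, 23, 40, 51 and 69 were at 12.85, 13.31, 12.60, 12.56 and 13.45. All 5 exceeded the Ctrl mean and 2 exceeded every Ctrl mouse. The 8h difference was 0.57 ± 0.20 (limma adjusted p = 0.0485), and 0.74 ± 0.21 (adjusted p = 0.0184) on the other B2m probeset.

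H2-M3, a nonclassical chain that presents formylated peptides, gave smaller differences at 0h and 8h than the brightest probesets of H2-K1 and H2-D1. Its Ctrl 0h mice lay between 7.70 and 8.35 and its CIE 0h mice between 8.12 and 8.46, a difference of 0.27 with a 95% interval of 0.04 to 0.49. At 8h the difference was 0.06, with an interval of -0.18 to 0.29, which leaves out a change of the size seen for H2-K1. At 7d all 6 CIE mice were below the Ctrl mean, by 0.24 on average (limma adjusted p = 0.241). Its promoter carries the same 4 motifs as H2-K1 and H2-D1.

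**Figure D1:**
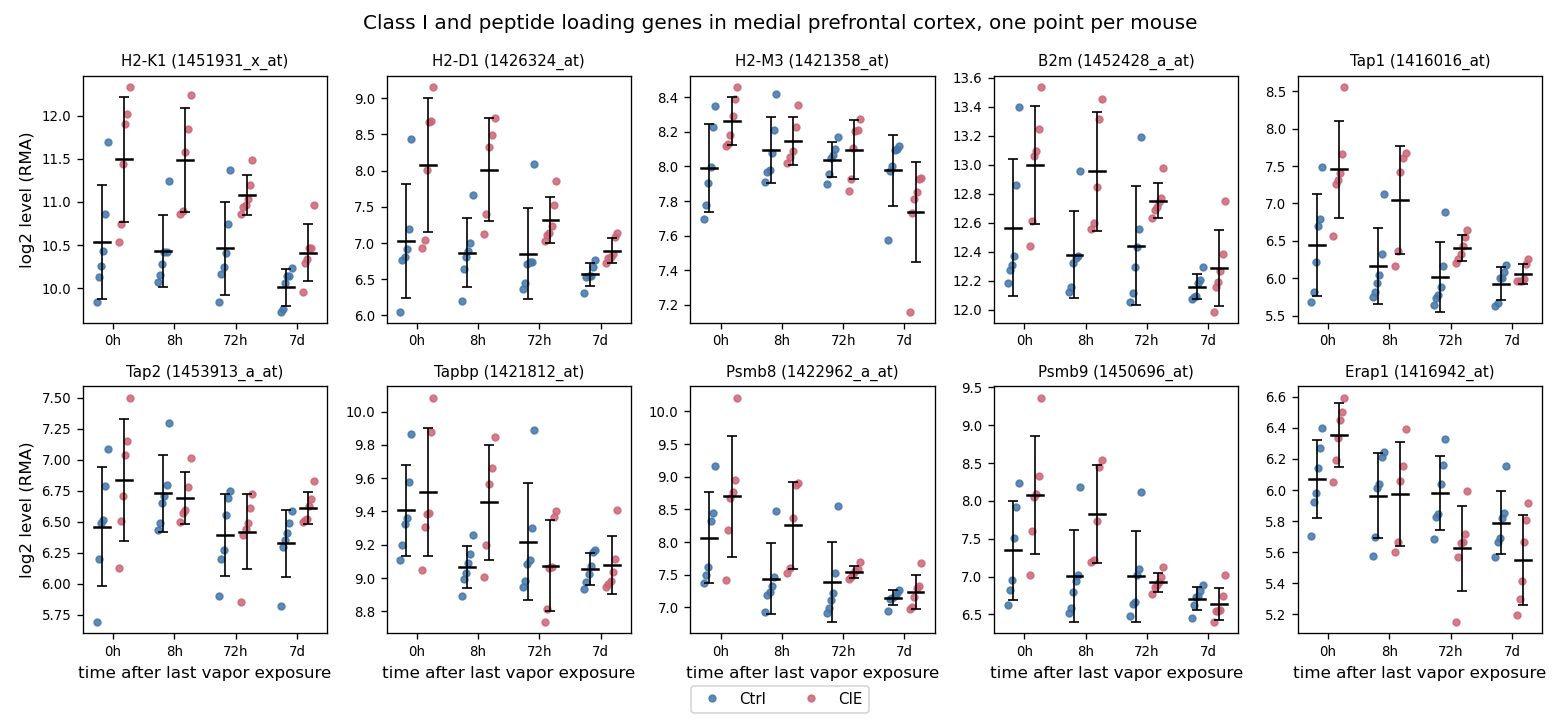
Log2 RMA level of the 10 genes (vertical axis of each panel, with its own range) in each mouse at 0h, 8h, 72h and 7d of withdrawal, for Ctrl and CIE groups of 6 mice (5 for CIE at 8h). Points are mice, and bars give the mean and SD. At 0h and 8h the CIE points for H2-K1, H2-D1 and Tap1 spread from the Ctrl level to well above it, and at 7d the spread of most genes is small.

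Tap1, the transporter subunit that shares a promoter region with Psmb9, was the only member whose brightest probeset passed the threshold. Its Ctrl 0h mice lay between 5.68 and 7.49 (median 6.46) and its CIE 0h mice between 6.56 and 8.55 (median 7.36). All 6 CIE mice were above the Ctrl mean and 2 were above every Ctrl mouse. Tap1 rose by 1.01 ± 0.27 (SE, 2.01-fold, limma adjusted p = 0.00867). The call was lost with the 0h arrays fitted alone (adjusted p = 0.0649) and with the striatum marker mean as a term (0.83, adjusted p = 0.0490). It was also lost without the 7 arrays that stood apart (adjusted p = 0.0194) and when 9 of the 12 mice of 0h were left out in turn. Among probesets above the median level, where Tap1 was tested, the call was lost too. At 8h CIE mice 15, 23, 40, 51 and 69 had 7.42, 7.67, 6.17, 6.37 and 7.60 against 5.75 to 7.12 in Ctrl mice, and the difference of 0.88 had an adjusted p of 0.0387. The dimmer Tap1 probesets 1420274_at, 1448177_at and 1449803_x_at had mean levels of 3.57, 4.42 and 3.73. Their 0h differences were 0.12, 0.061 and -0.15, with no call.

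The other transporter subunit, Tap2, differed by 0.38 at 0h (95% interval -0.0022 to 0.76), with CIE mice between 6.13 and 7.50 and Ctrl mice between 5.69 and 7.08. Without Ctrl mouse 2 it was 0.22, and without CIE mouse 17 it was 0.52. At 8h its difference was -0.037 (interval -0.44 to 0.36), and no CIE mouse was above every Ctrl mouse. Tapbp, which holds empty class I molecules at the transporter, differed by 0.11 at 0h (interval -0.20 to 0.42) and by 0.39 at 8h (interval 0.06 to 0.71). Of the 5 CIE mice at 8h, 3 were above every Ctrl mouse for Tapbp, and mouse 40 was below the Ctrl mean of 9.07. The limma adjusted p at 8h was 0.103. The other Tapbp probeset (1450378_at) had the opposite order, with 0.56 at 0h (interval 0.15 to 0.97) and 0.033 at 8h (interval -0.39 to 0.46), and no call.

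The immunoproteasome subunits Psmb8 and Psmb9 shared a pattern. For Psmb8 (1422962_a_at) the Ctrl 0h mice spanned 7.38 to 9.17 (median 7.96) and the CIE 0h mice 7.41 to 10.21 (median 8.73). At 8h the Ctrl mice spanned 6.93 to 8.48, and CIE mice 15, 23, 40, 51 and 69 were at 8.37, 8.87, 7.60, 7.53 and 8.91. The groups overlapped at both times, since the lowest CIE mice were at the Ctrl level and Ctrl mice 20 and 66 were as high as most CIE mice. The differences were 0.63 ± 0.31 at 0h (SE, limma adjusted p = 0.169) and 0.81 ± 0.33 at 8h (adjusted p = 0.0922). With each mouse of 0h left out in turn, the 0h difference ran from 0.33 (without CIE mouse 11) to 0.89 (without CIE mouse 43).

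Psmb9, the other inducible subunit, spanned 6.62 to 8.23 in Ctrl and 7.02 to 9.36 in CIE mice at 0h, and 6.52 to 8.18 in Ctrl and 7.19 to 8.54 in CIE mice at 8h. Its differences were 0.73 ± 0.29 (SE, limma adjusted p = 0.0849) and 0.82 ± 0.31 (adjusted p = 0.0735). That at 0h was 0.47 without CIE mouse 11 and 0.94 without CIE mouse 43. Erap1, which trims peptides to class I length, differed by 0.29 at 0h (95% interval -0.0096 to 0.58) and by 0.012 at 8h (interval -0.30 to 0.32). At 72h Erap1 was lower in CIE mice by 0.36 ± 0.15 (adjusted p = 0.224), with 5.15 to 5.99 against 5.68 to 6.33 in Ctrl mice. The other Erap1 probeset (1439068_at) gave 0.052 at 0h, 0.34 at 8h (interval 0.10 to 0.58) and -0.097 at 72h, with no call.

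**Figure D2:**
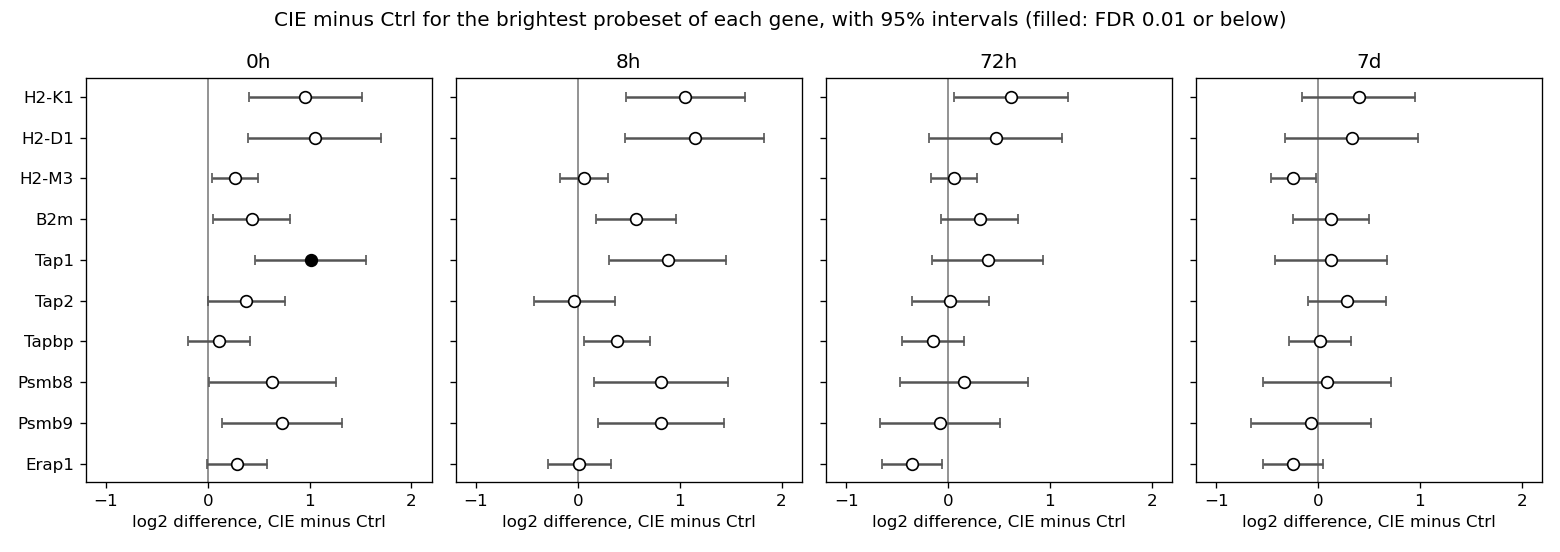
Log2 difference between CIE and Ctrl mice (horizontal axis) for the brightest probeset of each gene (vertical axis) at the 4 time points, with 95% intervals of the limma fit to 47 arrays; filled points passed FDR ≤ 0.01. At 0h all 10 points lie above 0 and only Tap1 is filled, and at 72h and 7d most intervals include 0.

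Over all 28 probesets, 3 rose and 0 fell at 0h, where 3.69% of all probesets rose and 3.58% fell. At 8h 1 rose and 0 fell, against a background of 2.28% and 1.11%. At 72h 0 were called in either direction (background 0.32% higher and 0.209% lower), and at 7d 1 rose and 0 fell (background 0.482% and 0.466%). With 3 calls or fewer at a time, the members are not set apart from these shares. At an unadjusted p under 0.05 were 16 of 28 at 0h, 16 at 8h, 2 at 72h and 4 at 7d, where 28.6%, 28.1%, 14.3% and 17.5% of all probesets were, and probesets of 1 gene are not independent. The median difference over the 28 was 0.40 at 0h, 0.27 at 8h, 0.07 at 72h and 0.10 at 7d, and over all probesets it was within 0.01 of 0 at each time. Higher in CIE mice were 25 of 28 at 0h, 23 at 8h and 19 at each later time, where 49.99%, 51.58%, 49.17% and 48.59% of all probesets were. At 0h, 2 of the 28 had every CIE mouse above every Ctrl mouse (3.49% of all probesets did), and at 8h 0 did (3.86%).

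The calls came from probesets that did not always follow the brightest probeset of their gene. H2-D1 probeset 1451683_x_at rose at 8h by 1.42 ± 0.34 (SE, 2.67-fold, limma adjusted p = 0.00600), with Ctrl mice from 6.60 to 7.72 and CIE mice 15, 23, 40, 51 and 69 at 9.36, 8.82, 7.36, 7.31 and 9.05. Its difference was 0.89 in repeat group 1 and 2.17 in repeat group 2, and repeat group 1 alone gave an adjusted p of 0.236. Psmb8 probeset 1444619_x_at rose at 0h by 0.31 (adjusted p = 0.00761) with no overlap, from 3.75 to 4.03 in Ctrl and from 4.04 to 4.48 in CIE mice. The lowest CIE and highest Ctrl mice are thus next to each other, near the bottom of the array's range of 2.82 to 14.66.

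H2-D1 probeset 1425614_x_at was called at 0h and 7d and differed from the other H2-D1 probesets. At 0h its Ctrl mice lay between 4.73 and 4.98 and its CIE mice between 5.38 and 5.82, a rise of 0.79 ± 0.14 (SE, limma adjusted p = 9.985e-05). At 7d Ctrl mice lay between 4.56 and 5.50 and CIE mice between 5.71 and 6.07, a rise of 0.69 ± 0.14 (adjusted p = 0.00279). At 8h the difference was -0.32, and the change in effect from 0h to 8h was -1.11 ± 0.20 (adjusted p = 3.661e-04), the only call among the 28 for that contrast, which called 3.41% of all probesets. Ctrl mice themselves differed between times on this probeset (mean 4.87 at 0h, 5.72 at 8h, 5.53 at 72h and 5.18 at 7d, F test adjusted p = 5.369e-04). It was the only member probeset called in that test, against 1.72% of all. The bright H2-D1 probesets 1425545_x_at and 1451784_x_at, by contrast, differed by 0.83 and 0.93 at 0h and by 0.18 and 0.22 at 7d, with no call.

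**Figure D3:**
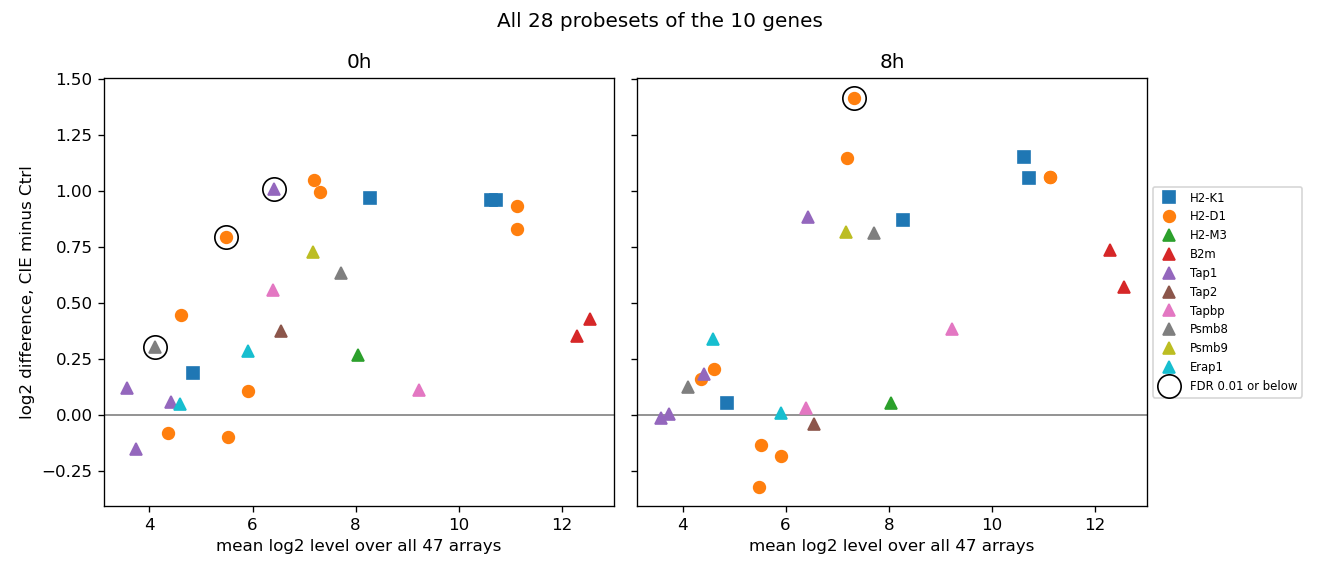
Log2 difference between CIE and Ctrl mice at 0h and 8h (vertical axis) against the mean log2 level over all 47 arrays (horizontal axis) for all 28 probesets, coloured by gene. Ringed points passed FDR ≤ 0.01. Most probesets with mean levels under 6 lie near 0, unlike the brighter probesets of the heavy chains, and the ringed H2-D1 probeset 1425614_x_at at 0h lies at 0.79.

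The differences were smaller at 72h and 7d for most members, but the change from early to late did not pass the threshold for any probeset. The mean of the 0h and 8h effects minus that of the 72h and 7d effects was 0.85 (95% interval 0.25 to 1.44) for Psmb9, 0.70 (0.04 to 1.36) for H2-D1, 0.69 (0.13 to 1.24) for Tap1 and 0.50 (-0.067 to 1.06) for H2-K1. For Tap2 it was 0.016 (-0.37 to 0.40). None of the 28 passed FDR ≤ 0.01 in limma, where 0.746% of all probesets did, and 15 had an unadjusted p under 0.05, as did 21.1% of all probesets. For H2-K1 at 72h CIE mice lay between 10.87 and 11.49 and Ctrl mice between 9.83 and 11.38, and at 7d 5 of 6 CIE mice were above every Ctrl mouse. Its differences were 0.62 (adjusted p = 0.278) and 0.40 (adjusted p = 0.487). H2-D1 likewise had 5 of 6 CIE mice above every Ctrl mouse at 7d, from 6.72 to 7.13 against 6.32 to 6.77, with a difference of 0.33 (adjusted p = 0.659). These p-values rest on 1 spread per probeset shared by the 8 groups. For H2-D1 the SD was 0.15 in Ctrl and 0.17 in CIE mice at 7d, against 0.79 and 0.92 at 0h. Intervals and p-values can thus be too wide or large at 7d, and too narrow or small at 0h.

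Single mice carried much of the spread, and a mouse that was high for 1 member was high for most. CIE 0h mouse 11 was above every Ctrl 0h mouse in 10 of 10 genes, with a mean over the members of 9.57, whereas CIE 0h mouse 43 was above every Ctrl mouse in 0 and averaged 8.09. Ctrl mice 20 (0h), 66 (8h) and 24 (72h) averaged 8.90, 8.69 and 8.71, while the other Ctrl mice of those times averaged 7.65 to 8.48. At 8h CIE mice 69, 15 and 23 averaged 9.05, 8.69 and 8.93, and mice 40 and 51 averaged 8.12 and 8.14. Mice 15 and 23 are the CIE mice of repeat group 2 and are among the arrays that stood apart. The differences in repeat groups 1 and 2 were 0.80 and 1.39 for H2-K1, 0.71 and 1.71 for H2-D1, 0.45 and 1.49 for Tap1, 0.43 and 1.32 for Psmb8, and 0.39 and 1.34 for Psmb9. At 7d CIE mouse 27 was above every Ctrl mouse in 8 of 10 genes. The same mouse had means of 8.78 for meninges, 8.34 for mural, 8.46 for endothelial and 7.07 for interferon-stimulated markers, above the highest Ctrl 7d mice at 6.99, 7.65, 8.24 and 6.76. Meninges markers also averaged 8.39 in Ctrl 0h mouse 56 and 7.89 in Ctrl 72h mouse 24, and at most 6.89 in every other mouse of 0h, 8h and 72h.

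**Figure D4:**
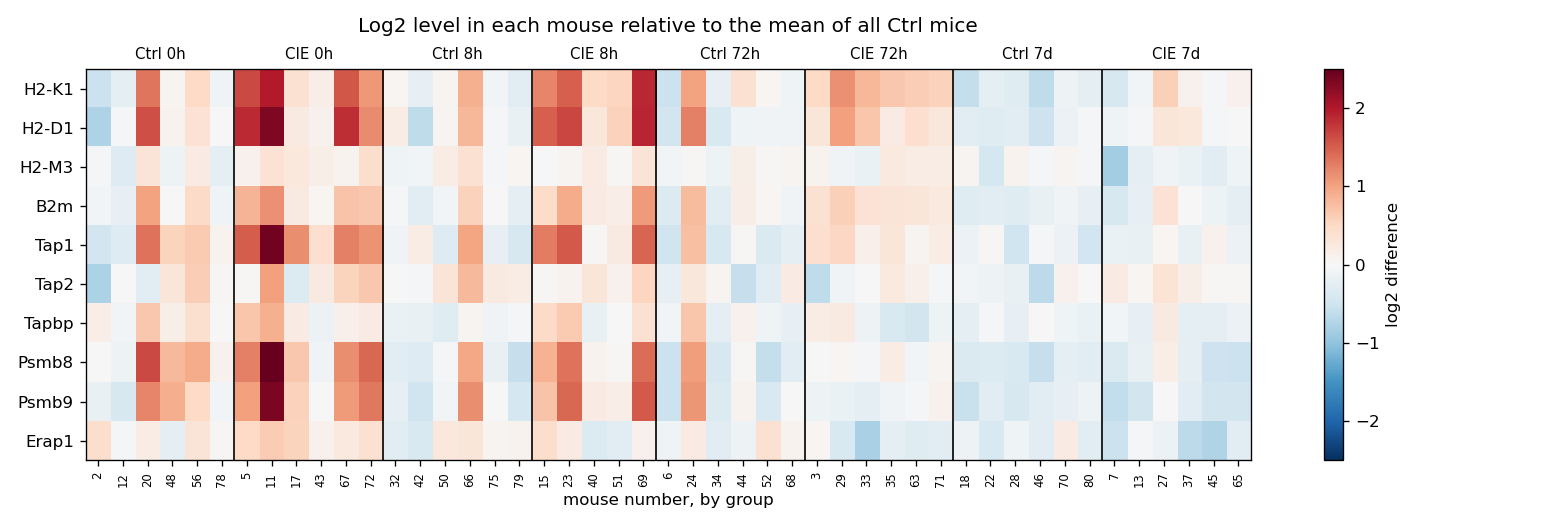
Log2 level of the 10 genes (rows) in each of 47 mice (columns, by group and mouse number) relative to the mean of all 24 Ctrl mice of that gene, red above and blue below. Columns are red for most genes together in CIE 0h mouse 11 and in Ctrl mice 20, 66 and 24, while H2-M3 and Erap1 stay pale.

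Counts of calls followed these mice. At 0h 9 probesets were called without Ctrl mouse 20 and 7 without CIE mouse 43, while 1 was called when any of CIE mice 5, 11, 67 and 72 or Ctrl mice 12, 48 and 78 was left out. At 8h 4 were called without CIE mouse 40 and 3 without mouse 51, and 0 when any of CIE mice 15, 23 and 69 or Ctrl mice 42, 75 and 79 was left out. At 7d the count was 0 without CIE mouse 27. The H2-D1 probeset 1425614_x_at kept its 7d call in 10 of 12 fits with a mouse of 7d left out (limma adjusted p at most 0.0104). Without the 7 arrays that stood apart, 2 were called at 0h and 0 at 8h. The share of all probesets called was not computed for these refits, so whether the counts move with the whole array cannot be told.

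Of the members, 7 moved together between mice of a group. Over the deviations of the 47 arrays from their group means, Pearson's r was 0.96 between Psmb8 and Psmb9, 0.95 between H2-K1 and H2-D1, 0.95 between H2-K1 and B2m, and 0.90 between Tap1 and Psmb8. Tapbp had r between 0.71 and 0.81 with these 6. Erap1 had at most 0.45, H2-M3 at most 0.49 and Tap2 at most 0.50 with any member, and between Tap2 and Erap1 r was 0.01. These values are descriptions over arrays that share a normalization. Tap1 and Psmb9, which share a promoter region, had r = 0.87, and Psmb8 and Tap2, which are neighbours, had 0.49.

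**Figure D5:**
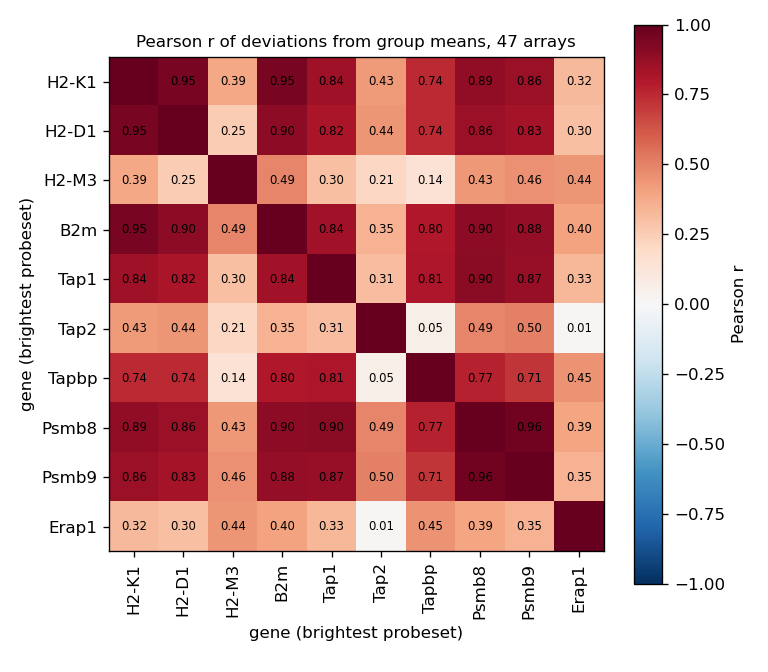
Pearson r between each pair of the 10 genes (rows and columns, brightest probesets), over deviations of 47 arrays from their group means. H2-K1, H2-D1, B2m, Tap1, Tapbp, Psmb8 and Psmb9 form a block of 0.71 or more, and H2-M3, Tap2 and Erap1 lie outside it.

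Of 18084 other genes, the 10 most like the mean of the members in these deviations were H2-Eb1 (r = 0.94), Igtp (0.93), Cd74 (0.93), Nlrc5 (0.92), Irgm2 (0.92), Gbp6 (0.91), Iigp1 (0.90), Gm4951 (0.90), Cd52 (0.88) and Mpeg1 (0.88). Nlrc5 is the class I transactivator, H2-Eb1 and Cd74 belong to the class II pathway, and Igtp, Irgm2, Gbp6 and Iigp1 are interferon-inducible GTPases. Nlrc5 was higher in CIE mice by 0.93 at 0h and 0.99 at 8h (limma adjusted p = 0.0582 and 0.0633). Cd52, a leukocyte surface gene, differed by 0.34 at 0h and 0.76 at 8h (adjusted p = 0.379 and 0.0456), and Mpeg1, a macrophage and microglia gene, by 0.010 and 0.19 (adjusted p = 0.980 and 0.505).

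The other genes of the pathway are given by list, on the brightest probeset of each gene, to be read against the shares of all probesets that rose and fell (3.69% and 3.58% at 0h, 2.28% and 1.11% at 8h). Of 12 other class I chains measured, 0 passed at 0h and at 8h 1 did, H2-Bl, which rose by 0.51 (limma adjusted p = 0.00682). The list had a median of 0.05 at 0h and 0.13 at 8h. Of 10 loading and trimming partners 0 passed at either time (medians 0.0070 and -0.097), and the chaperone Calr differed by 0.28 at 8h (adjusted p = 0.0164) and the aminopeptidase Lap3 by -0.43 (adjusted p = 0.0172). Of 8 proteasome subunits, activators and assembly factors apart from Psmb8 and Psmb9, 0 passed, and 1 at 0h and 2 at 8h were higher in CIE mice (medians -0.073 and -0.11). The constitutive subunit Psmb6, which Psmb9 replaces, was 0.10 lower at 0h (adjusted p = 0.167) and 0.15 lower at 8h (adjusted p = 0.0513), and the third inducible subunit, Psmb10, differed by -0.090 and -0.086 with no call.

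Of 27 regulators, Irf8 rose by 0.48 (limma adjusted p = 0.00701) and Socs1, an inhibitor of interferon signalling, fell by 0.57 (adjusted p = 7.992e-05) at 0h, and 0 passed at 8h. Of 11 genes listed as class I receptors and their partner chains, Klrc1 rose by 0.26 and Klra1 fell by 0.19 at 0h (adjusted p = 0.00577 and 0.00971). Their Ctrl 0h means were 3.69 and 3.74, and 0 of the 11 passed at 8h. Of 8 class II genes, H2-Ab1 rose by 1.75 at 0h and 2.14 at 8h (adjusted p = 0.00340 and 0.00188), and the list had medians of 0.51 and 0.56. Of 27 interferon-stimulated genes 0 passed at 0h or 8h, where 23 and 24 were higher in CIE mice with medians of 0.27 and 0.44. At an unadjusted level the smallest p belonged to Oasl2 at 0h (0.80, adjusted p = 0.0555) and Ddx58 at 8h (0.46, adjusted p = 0.0209). Of 16 glucocorticoid targets 8 rose at 0h and 6 at 8h, among them Plin4 by 2.54 and 2.19.

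Markers of other cell types were followed because several of these types express class I. Of 19 microglia markers 0 rose and 1 fell at 0h, and 0 rose and 2 fell at 8h, with medians of -0.040 and -0.0093. These medians span genes on either side of 0, and at 8h the markers ran from Fcrls at -0.89 to Sall1 at 0.55 (limma adjusted p = 5.07e-04 and 0.0426). Their mean level per mouse ran from 8.41 to 8.77 in Ctrl and from 8.12 to 8.82 in CIE mice at 0h, and from 8.42 to 8.67 and 8.39 to 8.74 at 8h. Within groups it followed the members, with r = 0.71 over the 47 arrays. With the microglia mean as a term of the model, 15 of the 28 probesets were called at 0h and 8 at 8h, among them H2-K1 at 0h (1.29, limma adjusted p = 4.504e-05). With the striatum mean as a term 2 and 1 were called. The shares of all probesets called with these terms were not computed, so these counts are not read as a result about the members. At 0h the microglia mean was 8.59 in Ctrl and 8.45 in CIE mice. Adjusting for a term that is lower in CIE mice and follows the members raises their differences.

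Endothelial markers (18 measured) had medians of 0.05 and 0.08 with 1 riser at each time and 1 that fell at 0h, and mural markers (10) had 0.020 and -0.052 with 1 that rose and 1 that fell at 0h. Of 14 T and natural killer cell markers 0 rose and 2 fell at 0h, and 0 passed the threshold at 8h, with medians of 0.027 and 0.098. At 8h 9 of the 14 were higher in CIE mice, and the r of this list with the members was 0.58. Of these 14, 12 had mean levels below the median of all probesets, and their mean per mouse ran from 5.24 to 5.46 in Ctrl and 5.22 to 5.43 in CIE mice at 0h, and from 5.27 to 5.37 and 5.34 to 5.59 at 8h. Of 14 blood myeloid markers, all with mean levels below that median, 2 rose and 1 fell at 0h and 2 rose at 8h, with medians of 0.030 and 0.11. Their mean level was 4.75 in Ctrl and 4.92 in CIE mice at 8h, and their r with the members was 0.57. Of 10 meninges markers 0 passed at either time, with medians of -0.31 and -0.13. The part of these cells and of bordering tissue in the differences of the 10 genes was not tested.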

How the data were processed

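Total RNA from medial PFC of individual mice was hybridised to Affymetrix Mouse Genome arrays. Probeset levels were deposited by the authors on the log2 scale. RMA is the tool named in the submitters' processing notes. In the study's methods, background was corrected by RMA and arrays were quantile normalized, first inside each hybridization batch and then over all arrays, and ComBat adjusted for repeat group, with versions not given in the sources used here. Since repeat group 2 held 8h mice alone, that adjustment can distort levels and differences at 8h. Precision is limited by the number of arrays. No 2 arrays held identical values (0 pairs), and 0 value columns were left out.

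The deposited levels entered the fit unchanged and unfiltered. Annotation gave 34945 probesets 1 symbol, 932 several and 9160 none. For 34741 probesets the symbol was updated by Entrez identifier from RefSeq (GRCm38.p6), used for names and order. Group means (8) were estimated from the 47 arrays together in limma 3.58.1 (R 4.3.3, moderated variances), and p-values were Benjamini-Hochberg adjusted over 45037 probesets, the threshold being FDR ≤ 0.01. Adjusted p-values come from this fit unless another setting is named. The contrasts were CIE minus Ctrl at each time, early minus late effect, 8h minus 0h effect (added after seeing the data) and a moderated F test of the 4 Ctrl groups. Intervals of 95% are from the same fit, whose spread for each probeset is shared by the 8 groups although the groups differed in spread. Mouse numbers are not shared between groups, so no samples were paired. The fit was tested on simulated data with known changes. Those data had independent probesets and the same spread in every group, so the test does not cover the unequal spreads or shared variation seen here.

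The members and gene lists were chosen with earlier results of these data known. All members were named, as were, of each pathway list, up to 4 genes of smallest p that passed or up to 2 where none passed, on the brightest probeset; Nlrc5, Cd52, Mpeg1, Fcrls, Sall1, Psmb6 and Psmb10 were picked after their values were seen. Likeness was Pearson's r of deviations from group means. Promoter windows were searched and plots drawn with Python 3.11.15 and matplotlib 3.10.9. Alternatives were repeat group as a term, repeat group 1 alone, array weights, leaving out arrays that stood apart (mean correlation over 3 scaled median absolute deviations below the median), quantile normalization, probesets above the median level, time points fitted alone, trended robust variances, FDR ≤ 0.05 and each array left out, and, chosen after seeing the data, the striatum or the microglia marker mean as a term.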

Additional observations from a re-analysis of the deposited data

Results flagged for a closer look

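Among 80 checks of the members' brightest probesets in the 8 groups, 8 found a mouse set apart from the rest of its group. The measure was the gap to its nearest neighbour as a share of the group's range, and chance gives about 1 in 20. The checks are not independent, since the genes were measured in the same mice and most moved together, so the count cannot be set against that rate. Ctrl 8h mouse 66 was highest for H2-K1 (11.24, share 0.705), B2m (12.96, share 0.701), Psmb8 (8.48, share 0.655) and Psmb9 (8.18, share 0.699). Ctrl 72h mouse 24 was highest for H2-D1 (8.09, share 0.783). CIE 7d mouse 27 was highest for Tapbp (9.41, share 0.64). For H2-M3, Ctrl 7d mouse 22 (7.58, share 0.735) and CIE 7d mouse 7 (7.16, share 0.742) were lowest.

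H2-D1 probeset 1425614_x_at differed between 0h and 8h in its ethanol effect, by -1.11 (limma adjusted p = 3.661e-04). Its 6 CIE mice were above every Ctrl mouse at 0h, and 1 of 5 was above the Ctrl mean at 8h.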

How the results depend on the processing

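Few calls were stable, while the direction of the larger differences was. At 0h, with 3 probesets called, array weights gave 5, probesets above the median level 0, the arrays of the time point alone 1, FDR ≤ 0.05 gave 11 and the microglia term 15. At 8h, with 1 called, repeat group 1 alone, the fit without arrays that stood apart and the time point alone gave 0, array weights 5, FDR ≤ 0.05 gave 9 and the microglia term 8. At 72h the count was 0 in every setting run. At 7d, with 1 called, array weights, the fit without arrays that stood apart and FDR ≤ 0.05 gave 2, and probesets above the median level and the time point alone gave 0. Early against late, with 0 called, array weights, FDR ≤ 0.05 and the microglia term gave 1. Ctrl mice across times, with 1 called, gave 2 in repeat group 1 alone and with array weights and 0 above the median level. The settings that keep bright probesets test fewer of them, and the time point alone uses fewer samples and takes the spread from those alone. For Tap1 (1416016_at) the Ctrl and CIE SDs were 0.68 and 0.65 at 0h, against 0.22 and 0.13 at 7d. For the other settings the cause was not tested. The share of all probesets called was not computed in these settings or with arrays left out, so these counts describe the members' calls only.

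With each array left out in turn, the counts ran from 1 to 9 at 0h, 0 to 4 at 8h and 0 to 1 at 7d, and did not move at 72h (0), early against late (0) or in Ctrl mice (1). Of the single differences, those near 0 changed sign: Tapbp at 0h was -0.068 with the striatum term, Tap2 at 8h was 0.067 without arrays that stood apart, and Erap1 at 8h was -0.33 in repeat group 1 alone, -0.21 with array weights and -0.19 without arrays that stood apart. With arrays left out in turn, Tapbp at 0h ran from -0.0027 (without CIE mouse 11) to 0.20, Tap2 at 8h from -0.12 to 0.077, and Erap1 at 8h from -0.093 to 0.11. No other difference among those compared changed sign. The H2-D1 probeset 1425614_x_at kept its call at 0h in all settings that tested it, with adjusted p between 9.37e-06 and 0.00140. H2-K1 at 0h kept a difference between 0.79 and 1.29 over all settings. No paired analysis was possible because the groups share no replicate numbers.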
